A study of Mus musculus with 15 samples.

Results

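Hypothalamic RNA of the groups named PGM and PGF was compared across all genes. The 6 samples, 3 in each group, belong to a series of 15 samples in 5 groups whose title concerns transgenerational effects of thyroid hormone in the F2 generation. All 5 groups (Control, PGM, PGF, HM and HF) held CD-1 mice, an outbred stock, at postnatal day 15, and total RNA was taken from the hypothalamus. The labels give no genotype, treatment or sex beyond these group codes, so the codes are used as they stand. The deposited table held 1 mean RPKM (reads scaled to transcript length and to the mapped reads of the library) per transcript and group, made by the authors. Since only these means were used, the differences lack a replicate check, an SD and a p-value, and the depth is unknown. The values of the 3 other groups are given only to show where PGM and PGF lay among them.

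Transcripts were reduced to their median for each gene name. Of 24831 names, 17481 were compared, those whose 5 group means averaged 1 RPKM or more. Just inside that limit stood Xrra1, at 1.0 RPKM in PGM and 0.91 in PGF, and just outside it Itga10, at 0.77 and 0.775. The difference is log2(PGM + 0.5) minus log2(PGF + 0.5), so a positive value means higher in PGM, and folds are on this scale, on which low genes appear closer than they are. A gene is counted when the difference reaches 1.5-fold, a descriptive limit and not a test.

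The hypothalamus sits at the base of the brain beneath the thalamus and joins the pituitary gland through the pituitary stalk. Its neurons release hormones that govern the pituitary, among them Trh, which acts through thyrotropin on the thyroid, and other neurons set appetite, water balance and reproduction. Thyroid hormone is needed for myelination and neuronal maturation in the young brain. Striatum, midbrain, choroid plexus and meninges are other compartments of or around the brain, and each has its own marker genes.

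The 2 groups were close for most genes. Of the 17481 genes, 16038, or 91.7%, differed by less than 1.2-fold, and the median difference was 0.03. By any amount, 10877 genes, or 62.2%, were higher in PGM and 6545 were higher in PGF. At least 1.5-fold higher in PGM were 76 genes (0.435% of all genes), and 97 (0.555%) were at least 1.5-fold higher in PGF, together 173 genes or 0.99%. Among the 10 pairs of groups in the series, only Control and HF had fewer such genes, 145, and the largest number was 807 for Control and PGM. The differences were uneven in size. None of the genes was 4-fold higher in PGM and 15 were 2-fold higher, whereas 13 were at least 4-fold and 8 at least 8-fold higher in PGF. Counted genes were most frequent at low levels. Of genes with a mean of PGM and PGF under 2 RPKM, 3.72% were counted, and of those between 20 and 100 RPKM 0.278% were counted, 16 higher in PGF and 2 higher in PGM. At 100 RPKM and above, 10 genes were counted as higher in PGF and 1, the imprinted noncoding RNA gene Meg3, as higher in PGM.

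**Figure D1:**
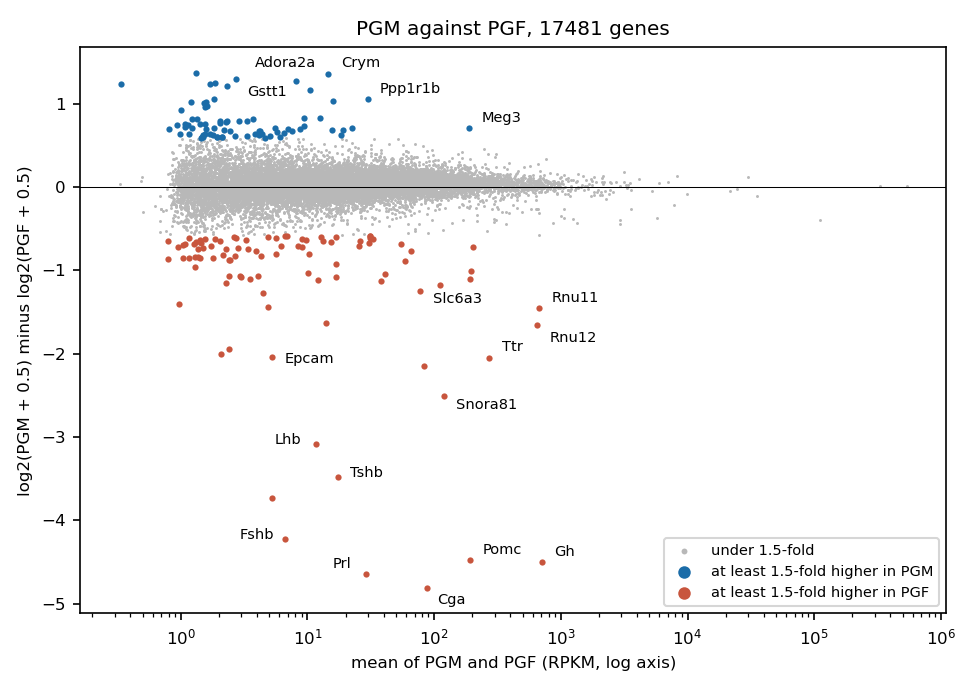
Difference between PGM and PGF (vertical axis, log2) against the mean of both groups (horizontal axis, RPKM on a log axis) for 17481 genes, each point 1 gene. The 97 genes at least 1.5-fold higher in PGF reach much further from 0 than the 76 that were higher in PGM, and the hormone genes Cga, Prl, Gh and Pomc lie lowest.

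Hormone genes of the pituitary gland showed the largest differences. All 7 members of the anterior pituitary hormone list were counted as higher in PGF, where 0.555% of all genes were, with a median difference of -4.48. Prl and Fshb passed the filter only through their level in PGF, so their place among the 7 follows in part from that level. Gh, which encodes growth hormone (GRCm38, chromosome 11, 106300271 to 106301865), stood at 59.7 RPKM in PGM and 1363 in PGF, with 39.8 in Control, 62.1 in HM and 16.5 in HF. PGF was 22.6-fold above PGM on this scale and above every other group, and PGM lay between HM and Control. Prl, the prolactin gene (chromosome 13, 27057570 to 27065205), stood at 1.75 RPKM in PGM and 55.9 in PGF, a 25.1-fold difference, and was listed at 0 in HF. Pomc, the precursor of corticotropin and melanocyte-stimulating hormone, which arcuate neurons of the hypothalamus also make, stood at 16.1 RPKM in PGM and 369.7 in PGF, with 24.3 in Control, 22.4 in HM and 20.5 in HF. Its 3 transcripts gave differences between -4.48 and -4.45.

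The glycoprotein hormones share the alpha subunit encoded by Cga and differ in their beta subunits. Cga stood at 5.60 RPKM in PGM and 170.3 in PGF, 28-fold apart, with 26.2 in Control, 20.8 in HM and 18.9 in HF. For this gene PGM was the lowest of the 5 groups and PGF the highest. Tshb, the beta subunit of thyrotropin, stood at 2.43 RPKM in PGM and 32.3 in PGF, and its 4 transcripts gave differences between -3.52 and -2.97. Lhb, the beta subunit of luteinizing hormone, stood at 2.1 and 21.3 RPKM. Fshb, the beta subunit of follicle-stimulating hormone, stood at 0.23 and 13.1 RPKM. Summed over the 7 genes, the level was 87.9 RPKM in PGM and 2025 in PGF, against 97.3 in Control, 111.9 in HM and 58.6 in HF. PGF was the highest group for all 7 genes.

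**Figure D2:**
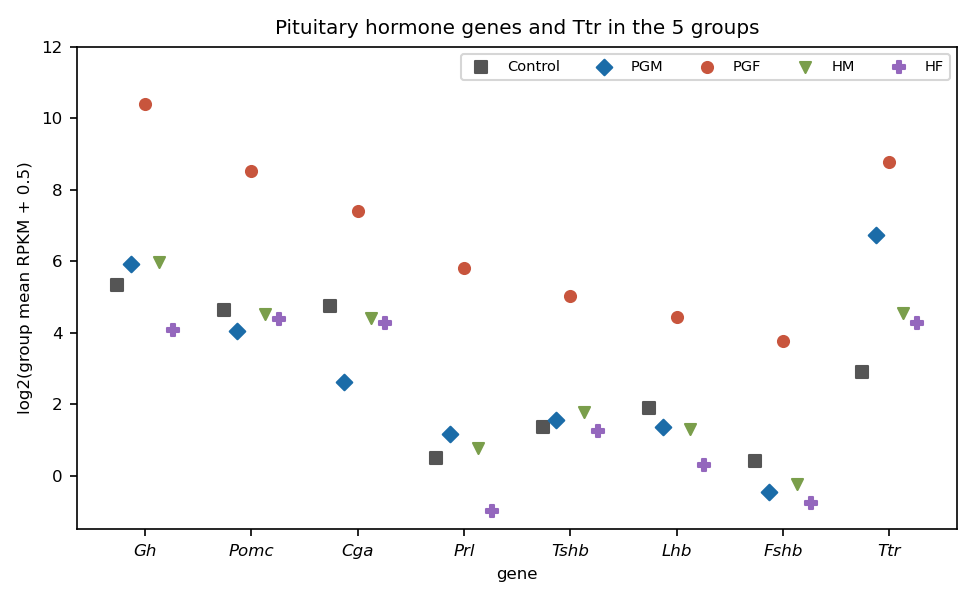
Level of 7 pituitary hormone genes and Ttr, 1 point per group mean, on a scale of log2(RPKM + 0.5). PGF lies above the other 4 groups for each gene, and PGM is second for Ttr but not for most hormone genes.

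Transcription factors and receptors of pituitary cells were near the limit of the table. Of 19 such genes, 7 passed the filter and none of these was counted, with a median of -0.15. Several of them, such as Crhr1 and Drd2, are also expressed by neurons. The other 12 lay under a mean of 1 RPKM. Of these 12, 11 were higher in PGF and 1 was higher in PGM, and the genes named next were picked from the 11. Pou1f1, the factor that drives the growth hormone, prolactin and thyrotropin lineages, stood at 0.06 RPKM in PGM and 1.2 in PGF. Of the receptors for releasing hormones, Ghrhr was at 0.05 RPKM in PGM and 1.6 in PGF, and Gnrhr at 0.05 and 1.2. Lhx3 stood at 0.11 and 1.36 RPKM, Pitx1 at 0.07 and 1.06, and Tbx19, a factor of Pomc-expressing cells, at 0.33 and 1.39. Genes of the secretory granule that neurons and pituitary cells both use differed little: Chga stood at 349 RPKM in PGM and 359.5 in PGF, and Pcsk2 at 89.4 and 88.0. The part of pituitary tissue in these samples was not tested, and in group means a difference in 1 sample and a difference in all samples of a group cannot be told apart.

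The promoter of Prl is shown because this hormone gene had one of the largest differences and its upstream sequence holds the binding core of the factor Pou1f1. RefSeq (GRCm38.p6) gave the promoter of 6 of the 7 hormone genes. The 250 bases upstream of the Prl start lie at chr13:27057320-27057569 on the plus strand, and capitals mark matches to TATNCAT on either strand, which begin at positions -148 and -47 from the start.

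Prl: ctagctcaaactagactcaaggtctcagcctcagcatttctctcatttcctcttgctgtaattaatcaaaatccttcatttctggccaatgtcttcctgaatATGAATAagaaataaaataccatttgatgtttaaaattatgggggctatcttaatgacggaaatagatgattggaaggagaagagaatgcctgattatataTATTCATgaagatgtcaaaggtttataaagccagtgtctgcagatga

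Among the 6 upstream windows of 250 bases, Prl alone held TATNCAT, which 7.92% of all 32851 windows of this length hold. The letters TATAAA were found on either strand in each of the 6, against 12.4% of all windows. A match of letters is a description and not a binding site.

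Markers of the choroid plexus, the tissue that makes cerebrospinal fluid, were also higher in PGF. Of 18 genes, 12 passed the filter, and all 12 were higher in PGF. Of the 12, 3 were counted (0.555% of all genes were), and the median was -0.42. The 6 genes under the filter were higher in PGF as well. Ttr, the thyroxine carrier protein, stood at 106 RPKM in PGM and 440.5 in PGF, against 7.01 in Control, 22.75 in HM and 18.7 in HF. PGF was thus 4.14-fold above PGM, and both stood above the 3 other groups. Folr1, a folate transporter of choroid plexus, stood at 2.44 and 5.67 RPKM, and its 4 transcripts all passed 1.5-fold. Its chromosomal neighbour Folr2, which macrophages express and which was picked after its value was seen, was counted in the same direction at -0.66. Kcnj13, a potassium channel of this epithelium, stood at 1.75 RPKM in PGM and 4.27 in PGF, with 4.62 in Control, 2.27 in HM and 3.58 in HF. For Kcnj13, then, PGM was the lowest group, with HM next. Enpp2, the autotaxin gene, which oligodendrocytes also express, stood at 214 and 308.7 RPKM, and Otx2 at 4.52 and 5.87. Epcam, an adhesion gene of epithelial cells, stood at 1.74 RPKM in PGM and 8.70 in PGF, with 2.45 to 3.01 in the 3 other groups.

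In these means, fewer cells of a type and less RNA per cell cannot be told apart, and the same holds for each list of cell markers that follows.

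Genes of midbrain dopamine neurons were higher in PGF. Of 12 genes on the list 11 passed the filter, and all 11 were higher in PGF. Of the 11, 5 were counted (0.555% of all genes were), and the median was -0.54. Slc6a3, the dopamine transporter (chromosome 13, 73536747 to 73578672), stood at 45.95 RPKM in PGM and 109.6 in PGF, against 58.1 in Control, 76.9 in HM and 122.6 in HF. Th, the rate-limiting enzyme of dopamine synthesis, which hypothalamic neurons express too, stood at 48.1 RPKM in PGM and 82.5 in PGF, with 62.0 in Control, 74.3 in HM and 103.4 in HF. For both genes HF and not PGF was the highest group, and PGM was the lowest. PGM was the lowest of the 5 groups for 10 of the 11 genes, and HF was the highest for 8. Slc18a2, the vesicular monoamine transporter, stood at 24.8 and 37.7 RPKM. Aldh1a1, an aldehyde dehydrogenase of these neurons, stood at 41.45 and 67.15 RPKM. The neighbouring gene Aldh1a7, with a difference of -0.83, was picked because it was itself counted and lies beside Aldh1a1. En1, a homeobox gene of the midbrain, stood at 1.57 and 3.30 RPKM. Chrna6, a nicotinic receptor subunit of dopamine neurons that was not on the list and was picked after its value was seen, stood at 11.5 RPKM in PGM and 22.3 in PGF.

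Genes of striatal projection neurons were higher in PGM. Of 16 genes, all above the filter, 14 were higher in PGM, 3 were counted (0.435% of all genes were), and the median was 0.38. Adora2a, the adenosine receptor of striatopallidal neurons (chromosome 10, 75316877 to 75334784), stood at 11.7 RPKM in PGM and 4.58 in PGF, against 2.19 in Control, 3.62 in HM and 5.74 in HF. Ppp1r1b, which encodes the phosphatase inhibitor DARPP-32 (chromosome 11, 98348404 to 98357796), stood at 40.4 RPKM in PGM and 19.2 in PGF, and its 3 transcripts gave differences between 1.05 and 1.06. Control stood at 3.70 RPKM, HM at 13.4 and HF at 13.9, so PGM was the highest group and PGF the second. Drd1a, the dopamine D1 receptor gene, stood at 12.19 and 6.65 RPKM. Gng7, a G protein subunit of striatal neurons, stood at 61.7 and 41.3 RPKM, just under 1.5-fold. PGM was the highest of the 5 groups for 13 of the 16 genes. The members were not uniform: Drd2, which dopamine neurons and pituitary cells also express, stood at 18.4 RPKM in PGM and 20.6 in PGF, and Scn4b, Tac1 and Rgs9 differed by 0.05, 0.05 and -0.01.

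Crym had the second largest difference among the named genes higher in PGM. It encodes a protein that binds thyroid hormone in the cytosol. It stood at 21.2 RPKM in PGM and 7.96 in PGF, 2.57-fold apart, against 4.83 in Control, 10.1 in HM and 13.9 in HF, and its 2 transcripts gave 1.16 and 1.40. PGM was the highest group and Control the lowest, as for Ppp1r1b and Adora2a, but HF and HM both lay above PGF. Rgs11, a regulator of G protein signalling that was picked after its value was seen, stood at 11.8 RPKM in PGM and 6.91 in PGF. Among cortical and hippocampal markers, 10 of 14 were higher in PGM, where 62.2% of all genes were, and the median was 0.08.

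**Figure D3:**
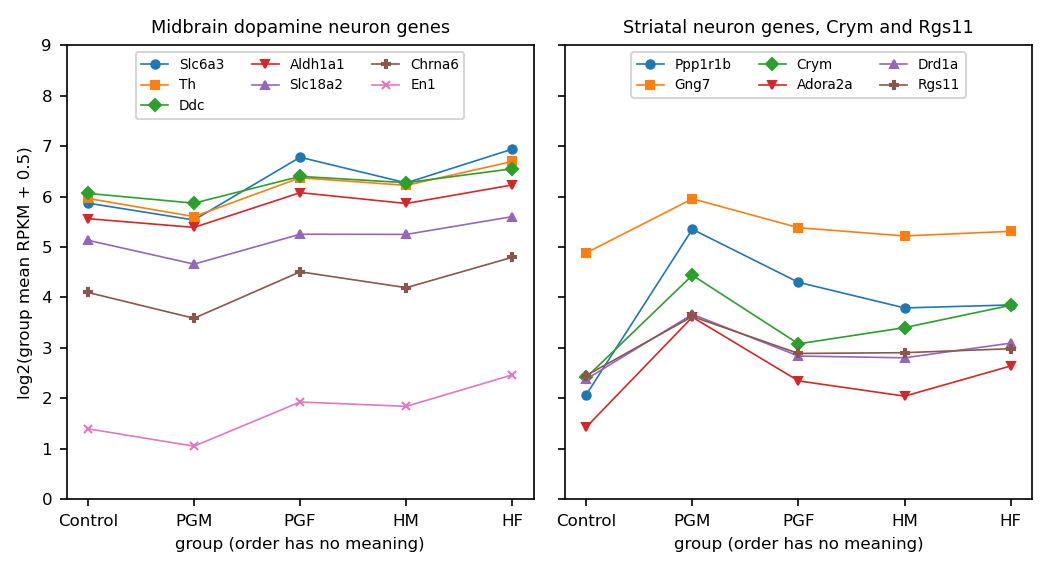
Level of 7 dopamine neuron genes (left) and of 6 striatal or other genes (right) in the 5 groups, on a scale of log2(RPKM + 0.5), with lines joining the values of 1 gene. The genes shown were picked, and Chrna6, Crym and Rgs11 are on neither list. Among the genes shown, PGM is the lowest group and HF the highest on the left, and PGM is the highest on the right. Over the whole lists, PGM was the lowest for 10 of 11 dopamine genes and HF the highest for 8. PGM was the highest for 13 of 16 striatal genes.

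Markers of the thalamus differed less. Several, such as Gbx2 and Lhx9, stood above Control in both groups, but Calb2 stood at 428 RPKM in PGM and 352 in PGF, against 421 in Control. Of 14 genes 12 were higher in PGM, none was counted, and the median was 0.18. Prkcd, a kinase of thalamic relay neurons, stood at 154 RPKM in PGM and 156 in PGF, against 35.0 in Control and 38.25 in HF. Ramp3 stood at 66.1 and 65.4 RPKM. For these 2 genes the groups were nearly equal, while Gbx2 and Lhx9, transcription factors of the thalamus, each had a difference of 0.50 with 19.5 against 13.7 RPKM and 10.8 against 7.48 RPKM.

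Most genes of hypothalamic neurons were under 1.5-fold. The list of neuropeptides had 33 genes above the filter and a median of 0.15, with 1 gene counted in each direction. Of the 33, 23 were higher in PGM, where 62.2% of all genes were. Gnrh1, the releasing hormone of the gonadotropins, was the gene counted as higher in PGM. It stood at 9.41 RPKM in PGM and 5.70 in PGF, with 9.28 in Control, 9.69 in HM and 11.7 in HF, so that PGF was the low group. Its 2 transcripts gave 0.65 and 0.70. Rln3, the relaxin-3 gene of a brainstem nucleus, was the gene counted as higher in PGF, at 2.45 against 1.13 RPKM. Vip, a peptide of the circadian clock nucleus, stood at 7.71 RPKM in PGM and 5.12 in PGF. Agrp, a peptide that stimulates feeding, stood at 6.58 and 4.64 RPKM, while Npy, made by the same arcuate neurons, stood at 69.5 and 62.5 and Cartpt, which suppresses feeding, at 83.5 and 90.8. The magnocellular hormones Oxt and Avp stood at 288.7 against 210.4 RPKM and at 352 against 266.8 RPKM, differences of 0.46 and 0.40. Both values were below those of the 3 other groups.

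The releasing hormone genes for the pituitary other than Gnrh1 were under 1.5-fold. Trh, which drives thyrotropin, stood at 87.9 RPKM in PGM and 75.95 in PGF, a difference of 0.21. Ghrh, which drives growth hormone, stood at 6.76 and 5.96 RPKM, and Sst, which restrains it, at 271.9 and 256.4. Crh, which drives corticotropin, stood at 9.62 and 9.48 RPKM. Kiss1, which acts on the Gnrh1 neurons, stood at 1.19 and 1.08 RPKM. In the lateral hypothalamus, Pmch stood at 590.8 and 603.75 RPKM and Hcrt at 167 and 198. Thus Trh, Ghrh and Sst were each slightly higher in PGM, while the pituitary hormone genes were higher in PGF. The difference of Crh, 0.02, became -0.01 with upper quartile scaling or median centring, so it has no direction.

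Hypothalamic transcription factors had a median of 0.09, with 17 of 27 higher in PGM, close to the 62.2% of all genes. The counted gene was Hmx3, a homeobox gene of hypothalamic progenitors and neurons, at 3.07 RPKM in PGM and 1.56 in PGF, while Control was at 4.23, HM at 3.06 and HF at 3.99. As a check on the labelled tissue, the hypothalamic factors Otp, Sim1 and Nkx2-1 were read in every group. Nkx2-1 stood at 17.7 RPKM in PGM and 15.8 in PGF, and at 18 to 19.2 in the 3 other groups. Otp stood at 3.56 and 3.15 RPKM and Sim1 at 2.83 and 2.88, against 8.45 and 5.68 in Control. The defining markers were therefore present in both groups, at lower levels than in Control for Otp and Sim1. Receptors for energy and hormone signals had a median of 0.07 and none of 22 was counted.

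Genes of thyroid hormone handling and response showed few differences apart from Crym. Of 18 genes for transport, activation, receptors and cofactors, Crym alone was counted, and the median was 0.05. Dio2, the enzyme that makes active thyroid hormone within the brain, stood at 17.7 RPKM in PGM and 23.45 in PGF, a difference of -0.39, with 14.5 in Control. Dio3, which inactivates the hormone, was under the filter at 1.27 RPKM in PGM and 0.76 in PGF. The receptor genes Thra and Thrb had differences of 0.11 and 0.06. The transporter gene Slco1c1 had a difference of -0.18. Of 16 genes that respond to the hormone none was counted, and their median was 0.10. Hr, a corepressor that is a direct target of the receptor in brain, stood at 32.7 RPKM in PGM and 31.1 in PGF, above 21.95 in Control. Klf9, a transcription factor induced by the hormone, stood at 123 and 114.5 RPKM.

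Small RNAs made up a second group of genes higher in PGF. Small nucleolar RNAs guide chemical changes of ribosomal RNA: the H/ACA class guides pseudouridylation and the C/D class guides 2'-O-methylation. Most are cut from introns of longer genes. The split into classes was made after the values were seen. Of 33 H/ACA RNAs above the filter, 30 were higher in PGF, where 6545 of all 17481 genes were. Of the 33, 14 were counted as higher in PGF (0.555% of all genes were), and the median was -0.30. Of 42 C/D RNAs, 31 were higher in PGF, and the median was -0.12. Counted were 2 as higher in PGF (0.555% of all genes were) and 3 as higher in PGM (0.435% of all genes were). Over the small nucleolar RNAs of the RefSeq annotation 26.0% were counted in either direction, against 0.662% of protein-coding genes. PGF was the highest of the 5 groups for 25 of the 33 H/ACA RNAs.

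The sequences of the H/ACA RNAs with large differences and of Rnu12 are shown because they are among the genes with the largest differences, and their classes follow their names. They come from the GENCODE M21 annotation of GRCm38. Capitals mark the ACA box that lies 3 bases from the 3' end in the first 2 of them, and in Rnu12 the stretch GTAAGGAA that pairs with the branch site of U12-type introns. Snora81 is given without capitals, since no ACA box was found at its 3' end as annotated. Snora69 lies at chrX:37082912-37083042 on the minus strand, Snora34 at chr15:98519716-98519853 on the minus strand, Snora81 at chr16:23110756-23110933 on the plus strand, and Rnu12 at chr15:83149644-83149794 on the plus strand.
Snora69: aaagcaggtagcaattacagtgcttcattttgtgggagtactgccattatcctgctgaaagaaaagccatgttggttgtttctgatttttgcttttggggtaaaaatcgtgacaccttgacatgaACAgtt
Snora34: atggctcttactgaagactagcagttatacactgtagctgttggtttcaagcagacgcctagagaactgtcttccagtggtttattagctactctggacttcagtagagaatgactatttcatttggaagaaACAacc
Snora81: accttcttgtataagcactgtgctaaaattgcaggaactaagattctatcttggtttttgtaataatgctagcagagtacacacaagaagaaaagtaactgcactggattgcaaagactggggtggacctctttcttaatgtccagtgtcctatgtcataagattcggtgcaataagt
Rnu12: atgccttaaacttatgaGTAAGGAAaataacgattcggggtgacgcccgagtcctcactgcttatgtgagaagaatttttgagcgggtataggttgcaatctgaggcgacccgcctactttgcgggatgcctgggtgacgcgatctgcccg

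Snora81 had the largest difference of the class. It stood at 35.1 RPKM in PGM and 202.5 in PGF, 5.70-fold apart, with 35.5 in Control, 83.9 in HM and 126.5 in HF. PGM was the lowest group and HF the second highest. Snora69 stood at 6.55 RPKM in PGM and 21.3 in PGF, with 3.95 in Control, 10.35 in HM and 10.6 in HF. Snora34 stood at 67.8 RPKM in PGM and 153.95 in PGF, with 46.0 to 76.55 in the 3 other groups. Snora23 stood at 122 and 264.5 RPKM. For Snora69, Snora34 and Snora23 the 4 other groups were all below PGF, and for each of them Control was the lowest.

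Most genes whose spans hold these RNAs were nearly level. Of the 33 H/ACA RNAs, 26 lay within the span of exactly 1 longer gene above the filter on the same strand, and the median over these 26 was -0.56. The 25 genes that hold them had a median of 0.05 and a range of -0.01 to 0.71, and 1 of them was counted. This was Snhg9, a noncoding host gene that holds Snora78, at 6.97 RPKM in PGM and 4.06 in PGF. For the 13 counted RNAs with such a gene, the median was -1.01, and their genes lay between 0.01 and 0.15 with none counted. The 13 were chosen for passing the limit and their genes were not, so part of this contrast follows from the choice. Eif4a2, a translation factor gene that holds Snora81, stood at 627.8 RPKM in PGM and 600.8 in PGF. Rpl39, a ribosomal protein gene that holds Snora69, stood at 532.75 and 513.5 RPKM, and Ipo7, an importin gene that holds Snora23, at 102.7 and 96.5.

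**Figure D4:**
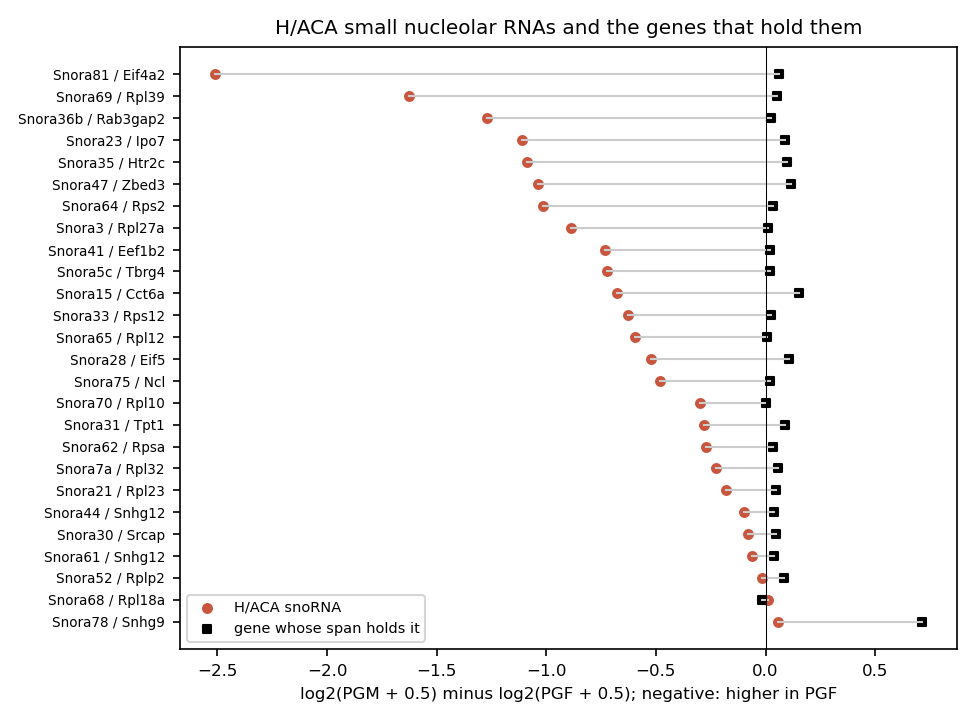
Difference between PGM and PGF (horizontal axis, log2, negative meaning higher in PGF) for 26 H/ACA small nucleolar RNAs, as circles, and the genes whose spans hold them, as squares, 1 pair per line. The squares lie between -0.01 and 0.71, the highest being Snhg9, which was counted as higher in PGM, while the circles extend to -2.51.

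Other short RNAs were unequal. Rnu11 and Rnu12, the RNAs of the minor spliceosome that removes U12-type introns, stood at 362.55 RPKM in PGM and 994 in PGF, and at 311.7 and 985, respectively. Both were between 190.6 and 440.2 RPKM in the 3 other groups. Vaultrc5, a vault RNA, stood at 30.05 RPKM in PGM and 134.9 in PGF, with 25.4 to 42.6 in the 3 other groups. In contrast, Rnu1b2, an RNA of the major spliceosome, stood at 31143 RPKM in PGM and 28774 in PGF. Rpph1, the RNA of ribonuclease P, stood at 33882 and 36673 RPKM, and Rmrp, the RNA of the related mitochondrial RNA-processing enzyme, at 24258 and 24696. These 3 very abundant RNAs differed by under 1.1-fold. Small Cajal body RNAs had a median of -0.06, with 1 of 8 counted, against 0.99% of all genes. RPKM of very short transcripts depends on how the short length was counted, which the sources do not state.

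MicroRNA names were counted often, at 20 of 70 or 28.6%, against 0.99% of all genes. Of these 20, 15 were under 5 RPKM in both groups. Of all genes with a mean of PGM and PGF under 2 RPKM, 3.72% were counted, and of those between 2 and 5 RPKM, 1.96%. Mir9-2, the gene of at least 2 RPKM with the largest difference toward PGM, stood at 2.11 RPKM in PGM and 0.51 in PGF, and Mir219-1 at 2.58 and 0.81. These values are reads on the precursor genes in a total RNA library, and not mature microRNAs. Among C/D RNAs, the neighbours Snord1b and Snord1c stood at 4.12 against 1.38 RPKM and 2.28 against 0.92, higher in PGM.

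Myelin genes were all higher in PGF by a small amount. All 22 genes of mature oligodendrocytes, the cells that wrap axons, were higher in PGF, where 6545 of all 17481 genes were. None of the 22 was counted, and the median was -0.28. PGF was the highest of the 5 groups for all 22. Mbp, the myelin basic protein gene and a classical target of thyroid hormone, stood at 4987 RPKM in PGM and 6448 in PGF, with 3228 in Control, 4352 in HM and 3440 in HF. PGM was second to PGF for Mbp and above Control. Mog, on the outer myelin surface, stood at 251.6 and 337 RPKM. The largest difference on the list was that of Ermn, a cytoskeletal protein of late oligodendrocytes, at 36.7 and 50.9 RPKM. Precursor cells had a median of -0.06, with 9 of 12 genes higher in PGF.

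Genes of the meninges, the covering of the brain, were lower in PGM than in PGF, and both lay well under HF. Of 18 genes, 17 were higher in PGF, 1 was counted (0.555% of all genes were), and the median was -0.39. Ptgds, a prostaglandin synthase of the meninges and of oligodendrocytes, stood at 538 RPKM in PGM and 803 in PGF, with 1468 in Control, 696 in HM and 1544 in HF. Ogn, an extracellular matrix protein of fibroblasts, was the counted gene at 4.58 and 7.82 RPKM. Igf2 stood at 58.5 and 82.9 RPKM. HF was the highest group for 17 of the 18 genes, and PGM was the lowest for 13. Fmod, a matrix gene near Btg2 on chromosome 1 that was picked after its value was seen, stood at 6.31 and 10.6 RPKM.

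Blood cell and vessel genes lay on the same side. Of 6 erythroid genes above the filter 5 were higher in PGF, 1 was counted (0.555% of all genes were), and the median was -0.40. The counted gene Alas2, the first enzyme of heme synthesis in red cells, stood at 13.3 RPKM in PGM and 20.4 in PGF, and Hbb-b1, a beta globin gene whose reads could be split with its close paralog, at 734 and 988. Brain endothelium had a median of -0.16 with 14 of 15 higher in PGF, and pericytes a median of -0.14.

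Immediate early genes, which neurons switch on within minutes of stimulation, were higher in PGF. Of 19 genes, 16 were higher in PGF, 3 were counted (0.555% of all genes were), and the median was -0.32. Fos stood at 19.95 RPKM in PGM and 31.7 in PGF, with 42.4 in Control, 30.4 in HM and 37.2 in HF, and PGM was the lowest. Btg2, an antiproliferative factor, stood at 10.2 and 16.4 RPKM. Junb, a partner of Fos, stood at 24.3 and 37.5 RPKM. Dusp1, a phosphatase that ends kinase signalling, stood at 20.4 and 29.2 RPKM. Not all members shared this: Jun stood at 38.3 and 37.9 RPKM, and Jund at 184 and 164.

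Markers of the habenula were a list made after the values were seen. Of 11 genes, 8 were higher in PGF, 2 were counted (0.555% of all genes were), and the median was -0.32. With a mean of at least 3 RPKM required, the median was -0.052. Gpr151, a receptor of habenular neurons, stood at 2.42 RPKM in PGM and 7.41 in PGF, with 1.55 to 1.68 in the 3 other groups. Gng8, a G protein subunit of the same neurons, stood at 1.42 and 2.87 RPKM. Pou4f1, a factor that defines them, was under the filter, at 0.50 and 1.45 RPKM.

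Motile cilia genes, which ependymal cells of the ventricle wall express, were higher in PGM. The list was made after values had been seen and includes genes picked for being high, so its counts are a description. All 27 genes above the filter were higher in PGM, 7 were counted (0.435% of all genes were), and the median was 0.35. Foxj1, the master factor of motile cilia, stood at 16.65 RPKM in PGM and 13.6 in PGF, with 13.1 in Control, 15.95 in HM and 13.5 in HF. PGF was the lowest group for 18 of the 27 genes. Stoml3 stood at 2.73 and 1.36 RPKM, and Mapk15 at 2.69 and 1.37. The separate list of tanycytes and ependyma had 13 of 17 genes higher in PGM and a median of 0.19.

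**Figure D5:**
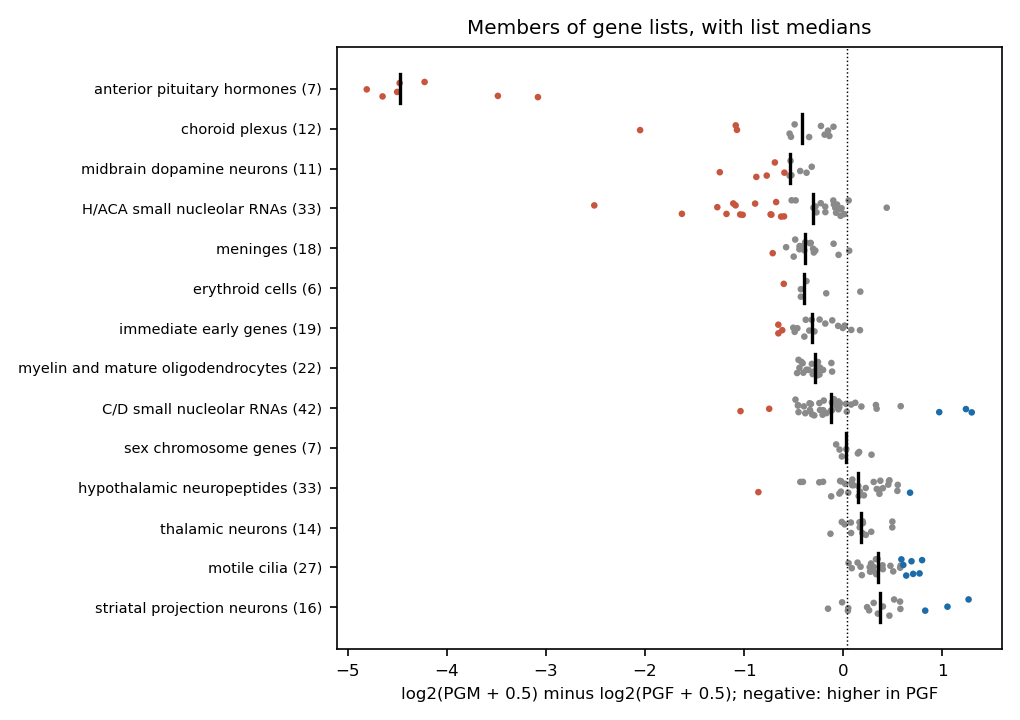
Difference between PGM and PGF (horizontal axis, log2, negative meaning higher in PGF) of each member above the filter, as points, for 14 gene lists with their number of members, with a bar at each list's median. The dotted line is the median of all genes, 0.03. Pituitary hormones have their median at -4.48, and dopamine and choroid plexus genes lie to the left of the dotted line by less. Motile cilia genes lie to the right of it, as do 14 of the 16 striatal genes.

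Several lists were nearly level. Ribosomal proteins had a median of 0.03 over 80 genes and none was counted. Microglia had a median of 0.06 and astrocytes of -0.04. Circadian clock genes had 17 of 18 members higher in PGM, with a median of 0.08. Dbp, an output gene of the clock, stood at 95.9 RPKM in PGM and 68.3 in PGF. Of the 47 gene lists first drawn up, 8 lay at least 0.2 below the median of all genes with at least 75% of members on that side, and 1, the striatal list, lay as far above it.

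Imprinted genes, expressed from 1 parental copy, had a median of -0.03 over 35 genes, and Meg3 was the counted gene. Meg3 (chromosome 12, 109541001 to 109571726), a maternally expressed noncoding RNA, stood at 234 RPKM in PGM and 144 in PGF, with 147 in Control, 141 in HM and 167 in HF. Its 7 transcripts gave 0.23 to 0.70, and 4 of the 7 passed 1.5-fold. Elsewhere in that imprinted region, Rian, another maternally expressed RNA, stood at 717 and 592 RPKM, and Mirg at 16.0 and 16.25. The paternally expressed Dlk1 and Rtl1 stood at 27.1 against 30.7 RPKM and 12.1 against 13.1. Of 29 names above the filter between 109452823 and 110281097, 14 were higher in PGM, 5 were counted as higher in PGM and 1 in PGF, and the median was 0.00. MicroRNA names made up 23 of the 29 and 4 of the 5, and the 1 higher in PGF, Mir494, was also a microRNA name, a class of which 28.6% were counted overall.

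Sex chromosome genes were level between PGM and PGF, and 0 of 7 was counted. Ddx3y, a Y-linked helicase gene, stood at 30.4 RPKM in PGM and 32.0 in PGF, against 2.52 in Control, 16.75 in HM and 15.9 in HF. Xist, the RNA that silences an X chromosome in female cells, stood at 14.2 RPKM in PGM and 11.6 in PGF, against 44.0 in Control, 26.4 in HM and 35.4 in HF. Eif2s3y, Uty and Kdm5d, all Y-linked, differed by less than 1.2-fold. The labels give no sex for these groups, and the share of male and female animals behind each mean was not tested.

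Of the remaining genes with large differences, Gstt1, a glutathione transferase gene (chromosome 10, 75783813 to 75798584), stood at 14.6 RPKM in PGM and 6.26 in PGF, with 13.7 in Control, 15.35 in HM and 14 in HF. PGF was thus the group that stood apart. Of its neighbours, Gstt3 stood at 4.66 and 2.97 RPKM, and Gstt2 at 4.13 and 4.18. Amy1, an amylase gene, stood at 16.2 RPKM in PGM and 8.90 in PGF. Pcp2 and Cbln3, genes of cerebellar Purkinje and granule cells, stood at 2.06 against 5.01 RPKM and 1.54 against 3.26.

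Set among the 5 groups, genes higher in PGF differed in kind. PGF was the highest group for 59 of the 97, and PGM the lowest for 52. These counts are raised by the choice of genes with PGF above PGM. For 43 of the 97, or 44.3%, all 3 other groups were nearer to PGM, as they were for 29.0% of all genes, and for 24, or 24.7%, they were nearer to PGF, as for 34.4% of all genes. Of the 76 genes higher in PGM, PGM was the highest group for 53, and PGF the lowest for 49, counts raised by the choice in the same way. For 18 of these 76, or 23.7%, the 3 other groups were nearer to PGM, and for 25, or 32.9%, nearer to PGF, both close to the shares over all genes. HM and HF, which share no samples with PGM and PGF, had 229 genes at least 1.5-fold higher in HF, 1.31% of all genes, and 64 higher in HM, 0.366%. Of the 97 genes higher in PGF, 19 were at least 1.5-fold higher in HF than in HM, and 4 were higher in HM. Of the 76 genes higher in PGM, 5 were at least 1.5-fold higher in HM than in HF, and 4 were higher in HF. Slc6a3 and Th, named above, were higher in PGF than PGM and in HF than HM, while the pituitary hormones Gh, Lhb and Fshb were higher in PGF than PGM and lower in HF than HM.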

How the data were processed

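RNA-seq of hypothalamus was made from 15 samples, 3 per group, of which the 6 of PGM and PGF are compared. Reads were checked with FastQC and aligned with Novoalign 2.08 to mm10, per the submitters' processing notes. For the counter, annotation version, strand handling and depth: not given in the sources used here. The authors deposited RPKM values averaged over each group, 1 column per group with 2 decimals, per the file headers. No value per sample was used, so no test was made, and the separation of the 3 samples in a group is not described beyond being biological triplicates.

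Each gene name took the median of its transcripts, and names whose 5 group means averaged 1 RPKM or more were kept. Differences were taken as log2(RPKM + 0.5) of the group means, with 1.5-fold as the limit (Python 3.11.15, pandas 2.3.3, numpy 2.4.6), and the calculation was tested on simulated data. Just inside that limit stood Fam166b, at 5.69 RPKM in PGM and 3.62 in PGF, and just outside it Acta2, at 14.9 and 22.6. Antisense, overlapping and paralogous genes may share reads. The genes and lists were chosen with earlier results of these data known. The lists of H/ACA, C/D, Cajal body and U12-dependent RNAs, habenula and motile cilia were added after the values were seen. Named genes are the 20 of at least 2 RPKM with the largest difference in each direction and up to 5 per described list. All pituitary hormone and sex chromosome genes and a set list of hypothalamic, thyroid and related genes are also named. Others are said to be chosen later, serve to show level members, or were picked outside this rule. Among the last are Pou1f1, Ghrhr, Gnrhr, Lhx3, Pitx1, Tbx19 and Pou4f1, which lie under the filter. Genomic positions are those of GENCODE M21, and promoters, gene classes and their build, GRCm38.p6, those of RefSeq. A few genes are not reported here.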

Additional observations from a re-analysis of the deposited data

How the results depend on the processing

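No paired analysis was possible because the values were 1 mean per group. For the same reason leaving out a replicate could not be run, and depth limits cannot be stated. Every count depended on the setting. Against 76 genes higher in PGM and 97 in PGF, no filter gave 166 and 222, a mean of at least 3 RPKM gave 33 and 60, and a 2-fold limit gave 15 and 35. A pseudocount of 0.1 gave 132 genes higher in PGM and 139 in PGF, and a pseudocount of 1 gave 45 and 71. Of 2 alternatives chosen after seeing the data, protein-coding genes only gave 41 and 56, and at least 5 RPKM in PGM or PGF gave 26 and 57. Sums over transcripts, the highest transcript, upper quartile scaling, median centring and quantile normalization kept each count within 1.5 times, and scaling moved the share of counted genes higher in PGM from 43.9% to between 36.6% and 41.7%. The habenula median of -0.32 became -0.052 with a mean of at least 3 RPKM and -0.34 with quantile normalization, where fewer members lay on that side. Of 281 named genes, 68 were past 1.5-fold and none of these changed direction under the pseudocounts, transcript choices and scalings. Among those under 1.5-fold, 5 changed sign or became 0: Btbd9 and Chat with the highest transcript (-0.04 and 0.03), Sag with the highest transcript and the sum (0.06 and 0.04), Greb1 with the sum (0.00), and Crh with upper quartile scaling and median centring. At most 7 named genes crossed the limit under any 1 setting. The causes were not tested.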
